A study of Mus with 12 samples.

Results

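The circadian clock genes were examined in the m6A peak lists of mouse livers after high-fat feeding. They are 10 genes: the activators Clock and Arntl, the repressors Per1, Per2, Per3, Cry1 and Cry2, and the output regulators Dbp, Tef and Nfil3. A row of a list was assigned to a clock gene when the gene name in that row was one of these symbols. Of the 10 genes, 7 had at least 1 peak, and these 7 carried 56 of the 68562 peaks and 22 of the 18374 merged regions of the series, which cover 7906 genes in all. No peak of any list was named for Arntl, Cry1 or Dbp.

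The livers came from 3 male C57BL/6J mice fed a high-fat diet with 60% of its energy from fat (HFD) and 3 male C57BL/6J mice fed a low-fat diet with 10% of its energy from fat (WT). The mice were 6 weeks old at the start and were fed for 12 weeks, so WT stands for the control diet here and not for a genotype. MeRIP-seq sequences the mRNA fragments that an antibody against N6-methyladenosine (m6A) captures, and a peak marks where reads of the immunoprecipitate exceed those of the input RNA. There is 1 list per mouse, and the mice are called HFD-1, HFD-4, HFD-5, WT-1, WT-4 and WT-5 as in the sample descriptions. The mice were kept in a light and dark cycle, but the sources used here do not give the time of day at which the livers were taken, and the part of that time in the results was not tested.

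The clock is a feedback loop of transcription. CLOCK pairs with ARNTL (also called BMAL1) and switches on the Per and Cry genes, whose proteins return to the nucleus and shut the pair down, while the output factors DBP and TEF activate and NFIL3 represses genes through the same DNA element, the D-box. In liver the loop times the daily course of lipid, glucose and bile acid metabolism, and most of these transcripts swing strongly over the day. m6A is written on mRNA by the METTL3 complex, and in cultured mammalian cells loss of METTL3 is known to lengthen the circadian period.

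The lists held 12898, 11925 and 10288 peaks in HFD-1, HFD-4 and HFD-5, against 10109, 10376 and 12966 peaks in WT-1, WT-4 and WT-5. Read counts are not in the lists and the depth of the libraries is unknown. Of 15 hepatocyte genes, 4 (Apoa1, Apob, Ttr and Fgb) had a peak in any list and none had one in all 6, and defining hepatocyte genes such as Alb and Hnf4a had none. Of 22 skeletal muscle genes, 1, 1 and 1 had a peak in the HFD lists, against 1, 14 and 17 in WT-1, WT-4 and WT-5, with Neb as the only one in all 6 lists. The muscle myosin genes Myh1, Myh2 and Myh4 had peaks in WT-4 and WT-5 alone. The part of the muscle genes in the results given here was not tested. The differences in clock gene peaks and in clock genes with a peak are also given without WT-4 and WT-5, and other counts are not.

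The number of m6A peaks in the clock genes overlapped between the diets. The 7 clock genes with a peak had 8 peaks per gene over the 6 lists and 3.14 regions per gene, against 8.67 peaks and 2.32 regions per gene over all 7906 genes. There were 11, 6 and 9 clock gene peaks in HFD-1, HFD-4 and HFD-5 (mean 8.67 ± 2.52, SD, n = 3), against 9, 6 and 15 in WT-1, WT-4 and WT-5 (mean 10 ± 4.58, SD, n = 3). The groups overlapped, and their means differed by -1.33 peaks, less than the SD of either group. The 2 highest counts came from the 2 longest lists, HFD-1 and WT-5. Per 1000 peaks of the list, the clock genes had 0.853, 0.503 and 0.875 peaks in the HFD lists, against 0.89, 0.578 and 1.16 in the WT lists. With each list shortened to its 10109 most significant peaks, the counts were 5, 5 and 8 in HFD livers (mean 6 ± 1.73, SD, n = 3), against 9, 5 and 9 in WT livers (mean 7.67 ± 2.31, SD, n = 3), and the groups still overlapped. Without WT-5 the difference turned to 1.17 peaks, without WT-4 and WT-5 it was -0.333, and without the 2 longest lists, HFD-1 and WT-5, it was 0. The number of clock genes with a peak was 4, 4 and 5 in the HFD lists, against 4, 2 and 6 in the WT lists. The means differed by 0.333 genes, and by 0.333 without WT-4 and WT-5 as well.

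**Figure D1:**
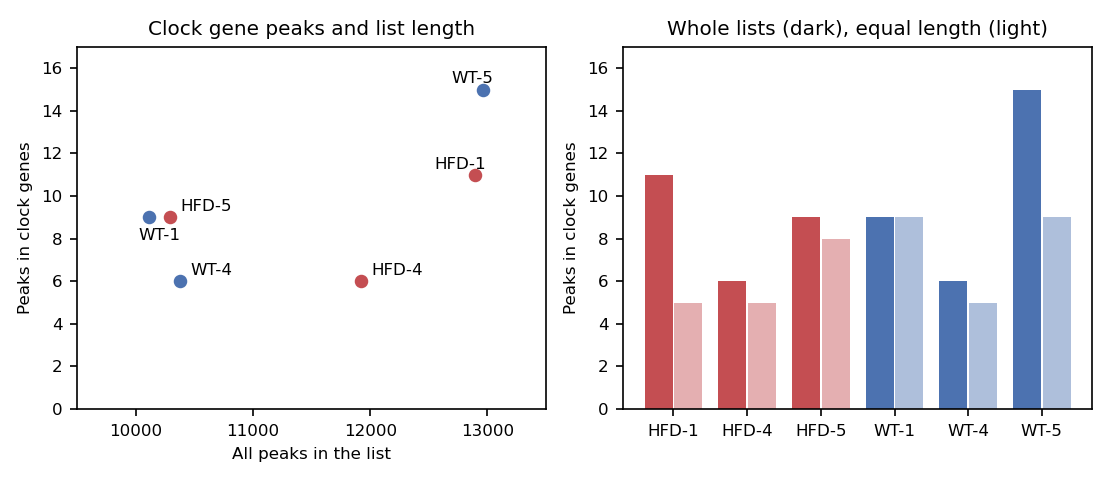
Number of m6A peaks in clock genes in each list. Left, the number of clock gene peaks (y axis) against all peaks of the list (x axis), with red for HFD and blue for WT; right, the same number in whole lists (dark bars) and in lists shortened to the 10109 most significant peaks (light bars). HFD-1 with 11 and WT-5 with 15 clock gene peaks are the 2 longest lists, and at equal length the 6 lists lie between 5 and 9.

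The peaks were unevenly divided among the genes. Clock alone held 27 of the 56 peaks (48.2%), and Clock and Per2 together held 40 (71.4%). Clock was the only one of the 10 genes with a peak in all 6 lists, whereas 49.2% of all genes with a peak had one in every list. With 9 regions Clock was among the 171 genes (2.16%) with at least 9, and Per2, with 7 regions, was among the 366 genes (4.63%) with at least 7. The other 5 genes with a peak had 1 region each or, for Nfil3, 2.

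Most clock gene regions were found in few mice. Of the 22 regions, 7 (31.8%) were in a single list and 1 (4.55%) was in all 6, while over all regions 23.7% were in a single list and 34% were in all 6. Of the 7 single-list regions, 5 (71.4%) came from HFD-1 or WT-5, as did 2511 of the 4355 single-list regions of all genes (57.7%). Of the 7 regions in exactly 2 lists, 3 were shared by HFD-1 and WT-5, mice of different diets. That pair held 495 of the 2468 regions in exactly 2 lists over all genes (20.1%), the largest number of any pair of lists. Of the 15 clock gene regions in at least 2 lists, 9 (60%) had the same first and last base in every list that held them, close to the 61.3% over all such regions.

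**Figure D2:**
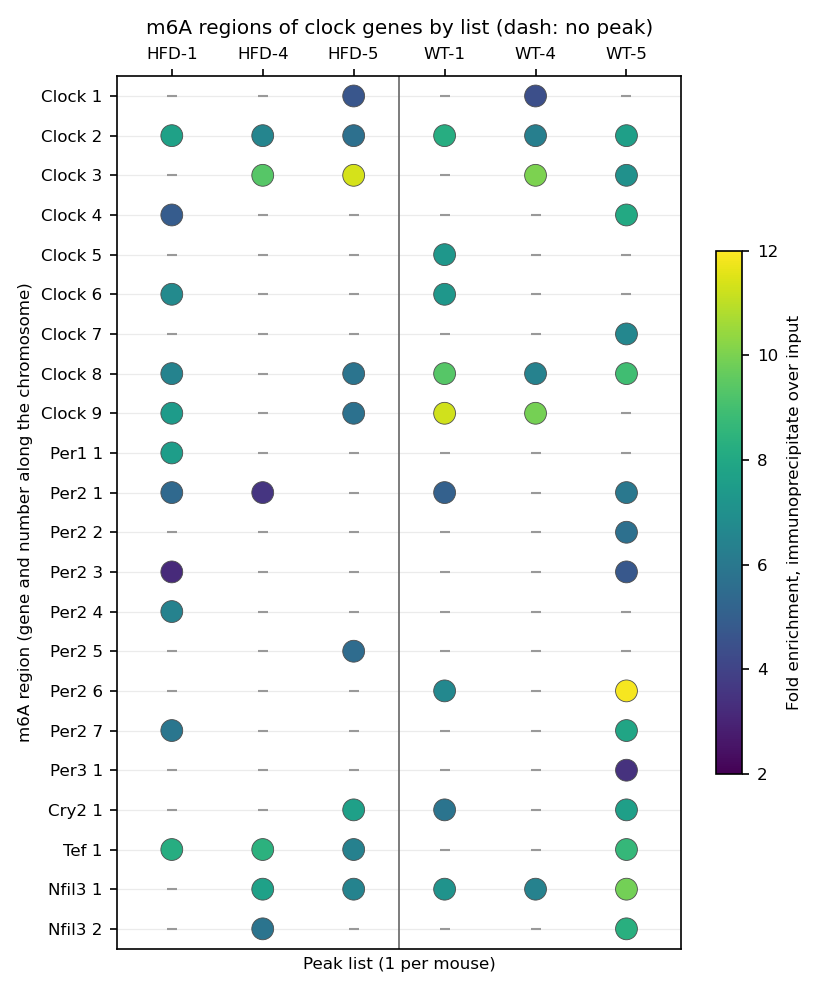
The 22 m6A regions of the clock genes (rows, numbered along the chromosome within each gene) in the 6 peak lists (columns, HFD left of the line and WT right of it). A circle marks a peak, coloured by its fold enrichment of immunoprecipitate over input from 2 to 12, and a dash marks a list with no peak. Clock 2 is the row with 6 circles, Tef 1 has circles in the 3 HFD lists and in WT-5, and no row is filled on one side of the line and empty on the other.

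The clock gene peaks were of moderate height. Fold enrichment, the ratio of immunoprecipitate to input that the peak caller gave, ran from 3.21 to 11.86 over the 56 peaks with a median of 6.71, while the median over all peaks was 7.64. In its own list the median clock gene peak stood at percentile 40.5, and 17 of the 56 (30.4%) lay above the median of their list. Their median length was 291.5 bases, against 284 bases over all peaks. The deposited false discovery rate of these peaks was never below 40.71%, so each of them stands in its list by its p-value and not by that rate. The same rate was high over all peaks, from 25 to 100%, with medians of 64.6 to 100% in the 6 lists.

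No clock gene region was found in all livers of one diet and in none of the other. Of the 22 regions, 0 were in all 3 HFD lists and no WT list, which 132 of the 18374 regions (0.718%) were, and 0 were in all 3 WT lists and no HFD list, which 54 regions (0.294%) were. Both background shares correspond to fewer than 1 region in 22. Counted by list, 4 regions were in more HFD than WT lists, 8 were in more WT than HFD lists and 10 were in equal numbers, while 29.9%, 23.2% and 46.9% of all regions fell in these classes. Of the 7 genes with a peak, 0 had more peaks in every HFD list than in any WT list (1.45% of all genes had) and 0 had more in every WT list (0.519% of all genes had).

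Clock, whose protein pairs with ARNTL to switch on the loop, spans 95.7 kb on chromosome 5 (gene ID 12753, chr5:76209868-76305603, GRCm38). It had 5, 2 and 5 peaks in HFD-1, HFD-4 and HFD-5, against 5, 5 and 5 in WT-1, WT-4 and WT-5 (two-sided exact permutation test, p = 1, n = 3 each). Only a single count was unlike the others, so every grouping of the mice gives the same difference. The test could therefore give no other p and cannot tell whether the diets differ. HFD-4 was the one list that stood below the others. At equal list length the counts were 2, 2 and 5 in HFD livers, against 5, 4 and 3 in WT livers. A peak threshold, which kept peaks reaching their list's median fold enrichment, left 0, 1 and 1 Clock peaks in HFD livers, against 3, 2 and 2 in WT livers. These counts did not overlap, and their means differed by -1.67. The setting was not planned for single genes, no test was run on it, and no other clock gene separated the diets under it. The share of all genes that separate the diets under this setting was not computed. Whether the separation of Clock is unusual therefore cannot be told. The regions lay in 2 stretches of the gene, with 6 of them between 6.2 and 27.2 kb above its lower-coordinate bound and 2 within 2.1 kb of its upper bound, and with 1 region of WT-5 alone at 64.1 kb. The lists do not give the strand, and the place of the regions in exons, introns or UTRs was not analysed here.

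The second region, Clock 2 (chr5:76226933-76227227), was the only clock gene region present in all 6 livers, with the same 295 bases in each. Its fold enrichment was 7.74, 6.55 and 5.67 in HFD-1, HFD-4 and HFD-5 (mean 6.65 ± 1.04, SD, n = 3), against 8.22, 6.29 and 7.61 in WT-1, WT-4 and WT-5 (mean 7.37 ± 0.987, SD, n = 3). The values overlapped between the diets, and in both groups the percentile in the list stayed between 29.8 and 55.2. For the limma fit over the 6245 regions found in all 6 lists, each list was centred on its median over those regions. These medians were 11.9, 10.4 and 9.32 in HFD-1, HFD-4 and HFD-5, against 9.73, 9.49 and 11.4 in WT-1, WT-4 and WT-5. The HFD minus WT difference of Clock 2 was -0.19 ± 0.24 on the log2 scale (SE, 95% interval -0.70 to 0.32), with an adjusted p of 0.9994. Without WT-1 the difference was -0.08. After the centring the 3 HFD values were -0.619, -0.671 and -0.717, against -0.243, -0.593 and -0.588 in WT livers, which no longer overlap, and the two-sided exact permutation test gave p = 0.1 (n = 3 each), the smallest it can give, and an adjusted p of 1. Over all regions 0 of 6245 (0%) passed an adjusted p of 0.05, 304 had an unadjusted p under 0.05, and the smallest adjusted p was 0.3573.

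The strongest difference between the diets among the fitted clock gene regions was at Clock 9 (chr5:76304368-76304548), 1.05 kb from the upper bound of the gene. Its fold enrichment was 7.44 and 5.72 in HFD-1 and HFD-5 (mean 6.58 ± 1.22, SD, n = 2), against 11.29 and 9.91 in WT-1 and WT-4 (mean 10.6 ± 0.976, SD, n = 2), and HFD-4 and WT-5 had no peak there. Both WT values lay above both HFD values. In a limma fit extended to the 9147 regions found in at least 2 lists of each diet, which leaves out the lists with no peak, the difference was -0.83 ± 0.31 on the log2 scale (SE, 95% interval -1.49 to -0.17, unadjusted p = 0.0179), and with an adjusted p of 0.9312 it did not pass. Before centring, 504 of the 9147 regions (5.51%) had every HFD value below every WT value, as 1 of the 6 clock gene regions in that set, Clock 9, did. After centring, the scale on which the fit runs, 705 of the 9147 regions (7.71%) did, and so did 4 of the 6 clock gene regions (Clock 2, Clock 8, Clock 9 and Per2 1). The shares over all regions are not matched to the clock gene regions in the number of values. Of the 9147 regions, 6245 were in all 6 lists, but of these 4 only Clock 2 was. With fewer values per diet such an order arises more easily by chance, and no matched share was computed. The shares therefore cannot tell whether the clock gene regions separate the diets more often than others. These 4 lie in 2 genes, and the count on centred values was added after the data were seen. This extended fit was chosen after the data were seen, and 2 of its 9147 regions (0.0219%) passed an adjusted p of 0.05, 0 of them in a clock gene.

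The neighbouring region Clock 8 (chr5:76303424-76303502) was found in 5 livers with the same 79 bases. Its fold enrichment was 6.48 and 5.83 in HFD-1 and HFD-5, against 9.38, 6.38 and 8.92 in WT-1, WT-4 and WT-5. The lower HFD value was below all 3 WT values, and the higher one was above that of WT-4 alone. After centring, the values were -0.876 and -0.677 in these HFD livers, against -0.053, -0.573 and -0.359 in the WT livers, with no overlap. The extended fit gave a difference of -0.45 ± 0.29 on the log2 scale (SE, adjusted p = 0.9988). HFD-4 had no peak in either of these 2 regions.

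Clock 3 (chr5:76231396-76231548) ran the other way in its mean and had the highest peaks of the gene in HFD livers. Its fold enrichment was 9.37 and 11.37 in HFD-4 and HFD-5, against 10.02 and 7.03 in WT-4 and WT-5, and neither HFD-1 nor WT-1 had a peak there. The score of minus 10 times the log10 of the p-value was 526.29 and 521.92 in these HFD livers, against 415.93 and 94.04 in the WT livers. The fold enrichment overlapped between the diets, and the extended fit gave a difference of 0.38 ± 0.35 on the log2 scale (SE, adjusted p = 0.9988). The region was thus present in mice 4 and 5 of both diets and in mouse 1 of neither, a pattern of lists shared by 65 of the 18374 regions (0.354%).

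The other 5 regions of Clock were in 1 or 2 lists. Clock 1 was found in HFD-5 and WT-4 with fold enrichments of 4.69 and 4.39, Clock 4 in HFD-1 and WT-5 with 4.86 and 8.04, and Clock 6 in HFD-1 and WT-1 with 6.74 and 7.30. Clock 5 was found in WT-1 alone with 7.30, and Clock 7 in WT-5 alone with 6.64. Each of the first 3 thus joined a liver of each diet.

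**Figure D3:**
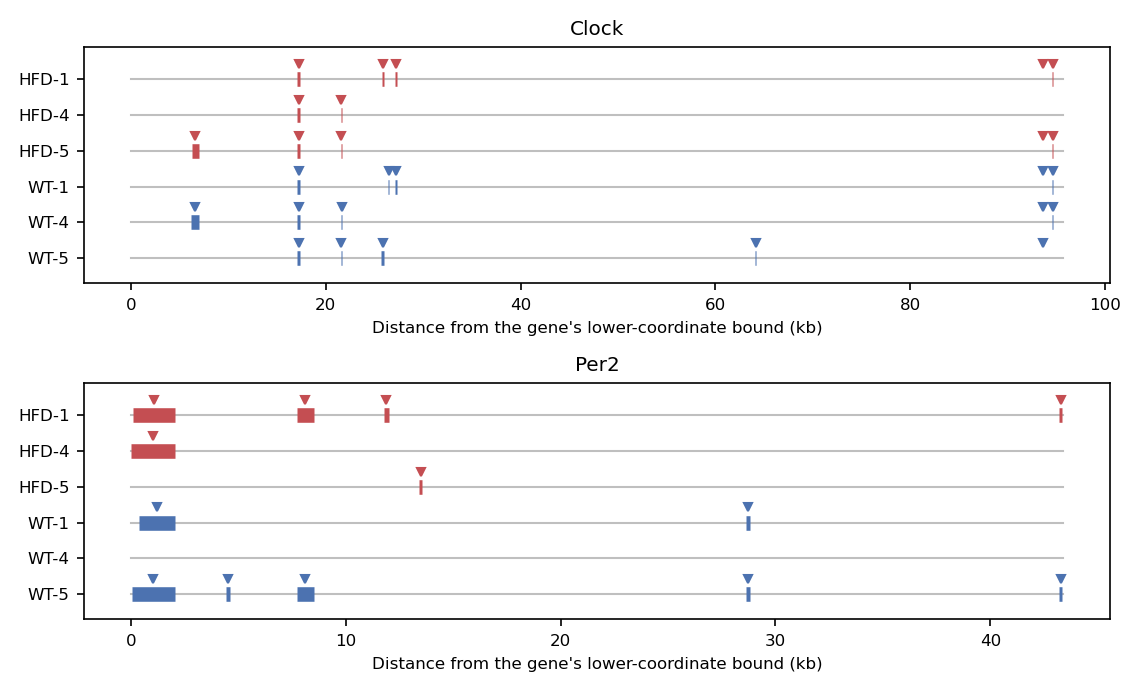
Position of the m6A peaks along Clock (top) and Per2 (bottom) in each list, with HFD lists in red above WT lists in blue. The x axis is the distance in kb from the lower-coordinate bound of the gene, a bar is the extent of a peak, and a triangle marks its middle. In Clock the peak of 295 bases at 17.1 kb stands in all 6 rows, and in Per2 the wide peak at the lower bound stands in 4 rows, 2 of each diet.

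Arntl, the partner of CLOCK, spans 136 kb on chromosome 7 and had no peak in any HFD or WT list. An absent peak does not show absent methylation, since a peak also depends on the level of the transcript and on depth, neither of which the lists give.

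Among the repressors, Per2 had the most peaks and varied most between mice. Per2 (gene ID 18627, chr1:91415977-91459351) had 4, 1 and 1 peaks in HFD-1, HFD-4 and HFD-5, against 2, 0 and 5 in WT-1, WT-4 and WT-5 (two-sided exact permutation test, p = 1, n = 3 each). The 2 longest lists, HFD-1 and WT-5, had 4 and 5 of its 13 peaks, and WT-4 had none. At equal list length the counts were 2, 1 and 0 in HFD livers, against 2, 0 and 4 in WT livers.

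The widest region of Per2, Per2 1 (chr1:91416001-91418020), began 0.024 kb above the lower bound of the gene and had peaks of 1662 to 2020 bases. Its fold enrichment was 5.36 and 3.55 in HFD-1 and HFD-4 (mean 4.46 ± 1.28, SD, n = 2), against 5.06 and 6.00 in WT-1 and WT-5 (mean 5.53 ± 0.665, SD, n = 2). The diets overlapped on this scale. After centring, the values were -1.149 and -1.555 in these HFD livers, against -0.943 and -0.931 in the WT livers, with no overlap. The extended fit gave a difference of -0.42 ± 0.32 on the log2 scale (SE, adjusted p = 0.9988). These were low peaks, at percentiles of 3.92 to 29.8 in their lists.

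Per2 6 (chr1:91444585-91444786), 28.6 kb above the lower bound, was found in WT livers only, with 0 of 3 HFD lists, against 2 of 3 WT lists. The fold enrichment was 6.68 in WT-1 and 11.86 in WT-5, the highest of any clock gene peak. WT-4 had no Per2 peak at all. When WT-4 was left out, this region was in every remaining WT list and in no HFD list. Over all genes 112 regions (0.61%) were found in WT-1 and WT-5 alone. The other pairs of WT lists alone held 57 regions (WT-1 and WT-4) and 281 regions (WT-4 and WT-5).

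The remaining 5 regions of Per2 came from HFD-1, HFD-5 and WT-5. Per2 3 had a fold enrichment of 3.21 in HFD-1 and 4.73 in WT-5, and Per2 7, which ended 0.021 kb below the upper bound of the gene, had 5.91 in HFD-1 and 7.87 in WT-5. Per2 4 was in HFD-1 alone (6.42), Per2 5 in HFD-5 alone (5.51) and Per2 2 in WT-5 alone (5.65). The score of Per2 5, at 50.19, was close to the smallest value that the lists hold, which is 50.

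The other repressors had 1 region or none. Per1 (gene ID 18626), which light induces quickly in the brain clock, had a single peak, in HFD-1 (chr11:69105390-69106458, fold enrichment 7.52). Per3 (gene ID 18628) had a single peak, in WT-5 (chr4:151044108-151044665, fold enrichment 3.43, percentile 1.95 in its list). Neither peak was among the 10109 most significant of its list. Cry2 (gene ID 12953), whose protein represses the CLOCK and ARNTL pair directly, had 1 region at the lower bound of the gene (chr2:92403646-92405134) with a fold enrichment of 7.63 in HFD-5, against 5.84 and 7.59 in WT-1 and WT-5. The HFD value was close to that of WT-5, and 3 lists had no peak. Cry1 (gene ID 12952), its paralog, had no peak in any list.

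Tef, an activator of D-box genes, was the clock gene whose peak was present in every HFD liver and missing from most WT livers. Tef 1 (chr15:81811414-81811720, gene ID 21685) covered the same 307 bases in HFD-1, HFD-4, HFD-5 and WT-5, 8.74 kb above the lower bound of the gene, and neither WT-1 nor WT-4 had a peak there. The fold enrichment was 8.23, 8.38 and 6.36 in HFD-1, HFD-4 and HFD-5 (mean 7.66 ± 1.13, SD, n = 3), against 8.65 in WT-5. The one WT value was higher than all 3 HFD values. The count of 1, 1 and 1 peaks in HFD livers, against 0, 0 and 1 in WT livers, gave p = 0.4 in a two-sided exact permutation test (n = 3 each). With so many tied counts this is the smallest p the test could give here, so it cannot tell whether the diets differ.

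The score of the Tef peak was 336.83, 233.57 and 118.04 in HFD-1, HFD-4 and HFD-5, against 389.93 in WT-5, and it remained in the same 4 lists when every list was shortened to its 10109 most significant peaks. The part of depth and of the Tef transcript level in the missing peaks was not tested. When WT-5 was left out, Tef 1 was in every HFD list and in no WT list. Over all regions 381 of 18374 (2.07%) were in all 3 HFD lists and 1 WT list, as 1 of the 22 clock gene regions was, and 213 (1.16%) were in exactly the lists that held Tef 1. WT-4 and WT-5 both had peaks in skeletal muscle genes (14 and 17 of the 22), and WT-5 had the Tef peak while WT-4 did not. The part of the muscle genes in the Tef pattern was not tested.

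Nfil3, the repressor at the D-box, showed a peak in 5 of the 6 livers. Nfil3 1 (chr13:52967209-52969021, gene ID 18030) began at the lower bound of the gene and covered the same 1813 bases in HFD-4, HFD-5, WT-1, WT-4 and WT-5. The fold enrichment was 7.69 and 6.49 in HFD-4 and HFD-5 (mean 7.09 ± 0.849, SD, n = 2), against 7.15, 6.44 and 9.88 in WT-1, WT-4 and WT-5 (mean 7.82 ± 1.82, SD, n = 3). HFD-1, with the second longest list, had no peak there, and the values of the diets overlapped. The extended fit gave a difference of -0.08 ± 0.28 on the log2 scale (SE, 95% interval -0.67 to 0.52, adjusted p = 0.9988). The score was 597.22 and 236.25 in the HFD livers, against 485.55, 412.28 and 1780.25 in the WT livers, the last being the highest of all clock gene peaks. A second region, Nfil3 2 (chr13:52980861-52981073), was found in HFD-4 and WT-5 with fold enrichments of 5.84 and 8.31. Peaks per liver were 0, 2 and 1 in HFD livers, against 1, 1 and 2 in WT livers (two-sided exact permutation test, p = 1, n = 3 each).

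**Figure D4:**
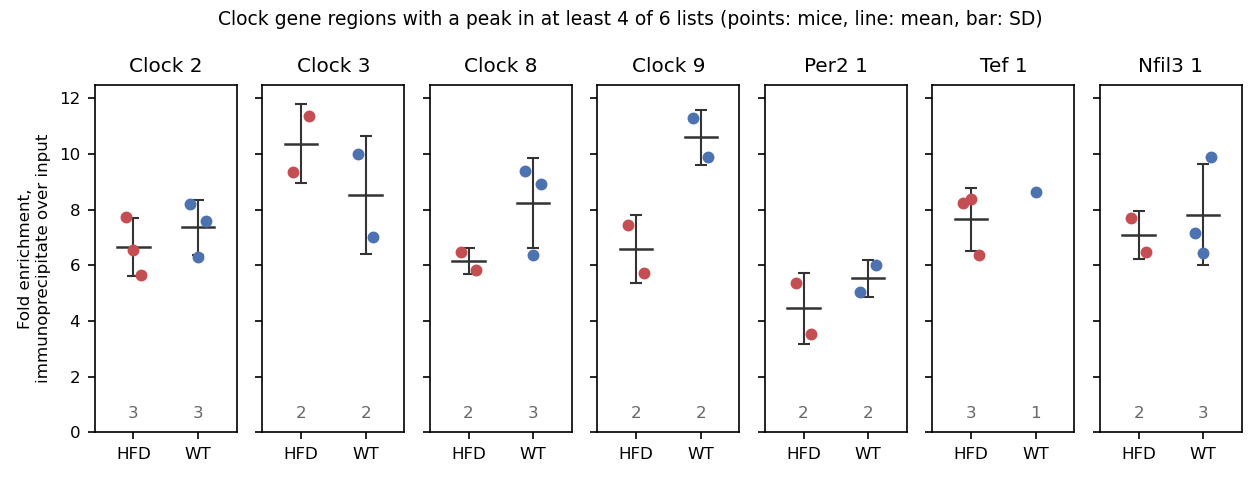
Uncentred fold enrichment of immunoprecipitate over input (y axis, linear) in the 7 clock gene regions with a peak in at least 4 of the 6 lists, with HFD in red and WT in blue. Points are mice, lines are means, bars are SDs where a group has at least 2 values, and the number at the foot is the number of lists with a peak. In Clock 9 the HFD values (7.44 and 5.72) stand below the WT values (11.29 and 9.91) with no overlap, and in Tef 1 there is 1 WT value, 8.65.

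Dbp, an activator of the same D-box and among the most strongly cycling transcripts of liver, had no peak under its own name. Its bounds (chr7:45705100-45710203) overlap those of Sphk2, a sphingosine kinase gene, by 741 bases, and a peak named Sphk2 (chr7:45709463-45711811) was present in all 6 livers with 741 of its 2349 bases (31.5%) inside the bounds of Dbp. In HFD-5 the peak was 6 bases shorter, with 735 bases (31.4%) inside. The fold enrichment of this peak was 13.96, 8.69 and 7.80 in HFD-1, HFD-4 and HFD-5, against 6.56, 8.46 and 11.83 in WT-1, WT-4 and WT-5. The diets overlapped, and HFD-1 and WT-5 had the highest values. Because the lists give no strand, reads of the 2 genes cannot be told apart in the shared stretch.

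Across the 6 clock gene regions found in at least 2 lists of each diet, the HFD minus WT difference ran from -0.83 to 0.38 on the log2 scale with a median of -0.30, and the median over all 9147 regions was -0.02. Of the 6 differences, 5 were below 0, as 52.6% of all regions were, and 4 of the 6 regions lie in one gene, Clock. None of them passed an adjusted p of 0.05 in limma, and 1, Clock 9, had an unadjusted p under 0.05, as 462 of the 9147 regions did.

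Other genes of the clock network were described in the same way. Of 20 such genes (among them nuclear receptors, kinases and ubiquitin ligases), 16 had a peak in some list and 9 had a peak in all 6, with 36 regions and 127 peaks. The 9 genes are 56.2% of the 16 with a peak, near the 49.2% over all genes. Npas2, which can stand in for CLOCK, the nuclear receptor Nr1d1 (REV-ERB alpha), Timeless and Arntl2 had no peak in any list. The peaks numbered 28, 20 and 20 in HFD-1, HFD-4 and HFD-5 (mean 22.7 ± 4.62, SD, n = 3), against 12, 19 and 28 in WT-1, WT-4 and WT-5 (mean 19.7 ± 8.02, SD, n = 3), which overlap. None of the 36 regions was in all lists of one diet and no list of the other, and 9 regions (25%) were in all 6 lists, while 34% of all regions were. None of these 9 passed an adjusted p of 0.05 in limma; their differences ran from -0.60 to 0.36 on the log2 scale with a median of -0.06, and the median over all 6245 regions was -0.02.

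A few values from this wider set, chosen after they were seen, put the clock gene peaks in scale. Csnk1e, a kinase that phosphorylates the PER proteins, had fold enrichments of 14.64, 8.05 and 14.69 in HFD-1, HFD-4 and HFD-5, against 16.44, 15.99 and 21.06 in WT-1, WT-4 and WT-5 (chr15:79418042-79419187). Every HFD value was below every WT value, with a difference of -0.60 ± 0.28 on the log2 scale (SE, adjusted p = 0.9994 in limma). Of the 9147 regions found in at least 2 lists of each diet, 504 (5.51%) had this order, a share not matched to Csnk1e in the number of values. Csnk1d, the sister kinase, had 28.26, 15.52 and 18.39 in HFD livers, against 11.41, 16.47 and 20.23 in WT livers, which overlap. Nr1d2 (REV-ERB beta), a repressor of Arntl transcription, had a peak in all 6 livers, at 19.59, 9.65 and 7.22 in HFD livers, against 11.38, 9.89 and 12.78 in WT livers. Wee1, a cell cycle kinase gene driven by the clock in liver, had 4, 2 and 3 peaks in HFD livers, against 0, 3 and 2 in WT livers. Each of the highest peaks of Csnk1d, Nr1d2 and Csnk1e stood above 11.86, the highest fold enrichment of the 10 clock genes.

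**Figure D5:**
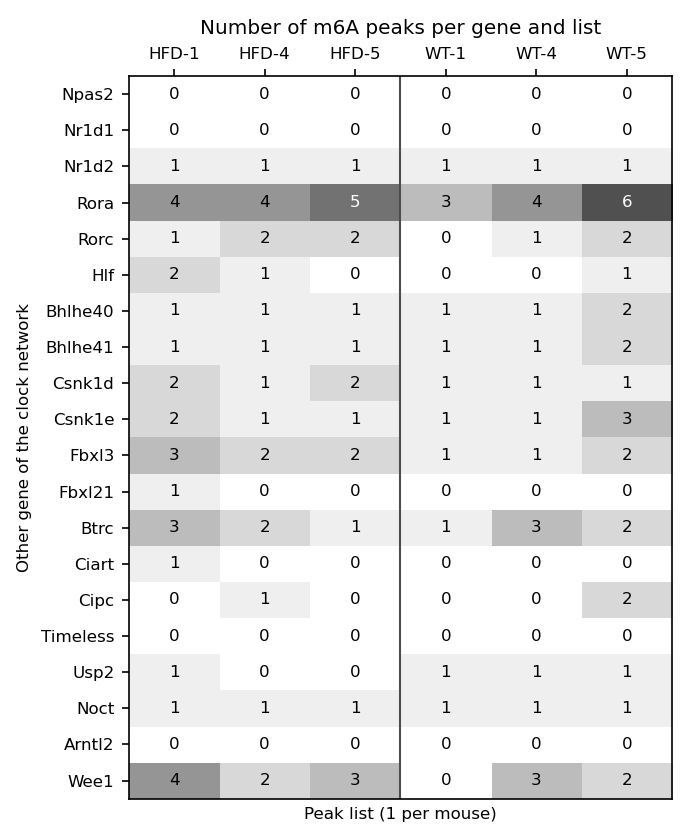
Number of m6A peaks in each of 20 other genes of the clock network (rows) in each list (columns, HFD left of the line and WT right of it), with darker cells for more peaks. Rora has 3 to 6 peaks in every list, Wee1 has 4, 2 and 3 peaks in HFD livers, against 0, 3 and 2 in WT livers, and 4 rows (Npas2, Nr1d1, Timeless and Arntl2) are empty.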

How the data were processed

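MeRIP-seq of liver RNA gave 12 samples, 6 immunoprecipitates and 6 inputs. The authors called peaks for each mouse; MACS2 2.1.0, Bowtie 1.1.2, Trimmomatic 0.33 and bcl2fastq 2.17 are the tools in the submitters' processing notes. These notes name a human build, but the listed genes and positions are those of mouse GRCm38, against which gene bounds were taken from RefSeq. The groups come from the sample descriptions, since the diet label reads HFD for all samples. The deposited fold enrichment is the ratio of immunoprecipitate over input given by the peak caller. The deposited score is minus 10 times the log10 of the p-value, and the deposited false discovery rate is a percent, from 25 to 100. The lists hold no counts, so the depth of each library is unknown and no counting interval can be given.

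Peaks overlapping by at least 1 base in any list were merged into regions, and starts were written with the first base as 1. The highest fold enrichment of a region in a list was taken, on the log2 scale, and centred on the list's median over the regions found in all 6 lists. limma 3.58.1 (R 4.3.3) was fitted over all regions found in all 6 lists, with Benjamini-Hochberg adjustment and a threshold of 0.05, and was tested on simulated data. With 3 mice per group, exact permutation tests cannot go below 0.1, and tied peak counts can raise that limit. No sequences are printed.

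The clock genes and the wider list of 20 genes were chosen with earlier results of these data known. All 10 clock genes and all their regions are named, and, of the wider list, the genes with no peak, with a region of one diet only or with a region past the threshold; other names are said to be chosen later. Alternatives changed the scaling, the overlap joining peaks (0.5 of the shorter peak), the value of a region, the peak threshold, the list length, the number of lists asked for, the pairing and the libraries.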

Additional observations from a re-analysis of the deposited data

How the results depend on the processing

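The count of regions past the limma threshold was 0 of 6245, and leaving out each list gave 0 to 2, with 2 without HFD-5 and 1 without WT-4. It was 2 in the fit over regions found in at least 2 lists of each diet, which was added after the data were seen. It stayed at 0 without centring, on percentiles, with the mean over peaks and with the stricter overlap, and Clock 2 did not pass in any of them. The exact permutation test also gave 0, but its p cannot go below 0.1. No region could therefore pass 0.05 in that test, and its 0 cannot tell whether the diets differ. The difference of Clock 2 was -0.26 to -0.08 with each list left out, the smallest being without WT-1.

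Clock gene regions in all HFD lists and no WT list numbered 0, and 0 to 1 with each list left out, the 1 being Tef 1 without WT-5. Clock gene regions in all WT lists and no HFD list numbered 0, and 0 to 1 with each list left out, the 1 being Per2 6 without WT-4. With at least 2 lists of a diet and none of the other asked for, the HFD count was 0 and the WT count was 1, again Per2 6. Of all 18374 regions, 54 were in all 3 WT lists and no HFD list. A further 57 were in WT-1 and WT-4 alone, 112 in WT-1 and WT-5 alone and 281 in WT-4 and WT-5 alone. On the HFD side, 132 were in all 3 HFD lists and no WT list. A further 329 were in HFD-1 and HFD-4 alone, 133 in HFD-1 and HFD-5 alone and 133 in HFD-4 and HFD-5 alone.

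The difference in clock gene peaks per list was -1.33, and -3.33 to 1.17 with each list left out. It was -2 when only peaks reaching their list's median fold enrichment were kept. The difference in clock genes with a peak was 0.333, and -0.667 to 1.33 with each list left out. The deviations of HFD and WT lists with the same mouse number correlated at -0.0438, 0.0243 and -0.221 over 6245 regions. Lists with unlike numbers correlated at -0.184 to 0.206. With 3 lists per diet, these values cannot tell whether equal mouse numbers stand for a pairing. With the replicate block the limma count was 0, the difference of Clock 2 was -0.19, and the differences in peaks and genes were -1.33 and 0.333. Depth is unknown, so a missing peak cannot be told apart from a shallow library or a low transcript.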
